A study of Homo sapiens with 8 samples.

Results

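The cytosolic nucleic acid sensors and their adaptors are the genes through which a cell recognises misplaced RNA and DNA and starts the interferon response. The 10 genes described here were taken by name, from a list drawn up with earlier results of these data known and with no cut on a measured value, as RIGI, IFIH1, DHX58, MAVS, TLR3, STING1, CGAS, TBK1, IKBKE and ZBP1. All 10 were found, each with 1 row of the deposited table, among 17492 named genes. Expression was read on 8 Affymetrix arrays, each from a separate subcutaneous tumour of SkMel147, a long-established human melanoma line, grown in BALB/c nude mice. The 4 vehicle mice drank the vehicle and the 4 doxycycline mice drank doxycycline for 7 days, starting at a tumour size of 100 mm3, to switch on Omomyc in the tumour cells. Omomyc is an engineered piece of the MYC protein that binds the partners and DNA sites of MYC and so interferes with its activity. No tumour without the inducible construct was analysed here, so effects of the drug and of Omomyc cannot be told apart here. Nude mice lack mature T cells of their own and keep other immune cells.

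RIG-I (RIGI) and MDA5 (IFIH1) are helicases that bind double-stranded RNA in the cytosol and pass the signal to MAVS, an adaptor on mitochondria. LGP2 (DHX58) is their relative without the signalling domains, and TLR3 senses double-stranded RNA in endosomes through a separate adaptor. cGAS (CGAS) binds DNA and makes the messenger cGAMP, which activates STING (STING1) on the endoplasmic reticulum. Both routes lead to the kinases TBK1 and IKK-epsilon (IKBKE), which activate the factors that switch on interferon genes. ZBP1 binds nucleic acid in the Z form and can set off necroptosis. Many of these genes are themselves induced by interferon.

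Promoter sequences are shown first for members on both sides of the result, 3 sensors of RNA whose levels rose and the kinase TBK1, which was not called. They come from the RefSeq table of build GRCh38.p14, which was matched by symbol for 6 of the 10 genes. DHX58, STING1, CGAS and ZBP1 were not used in this step. Each run is written 5′ to 3′ on the gene's own strand and covers the 250 bases before the annotated start, with 6 bases after it for TLR3. Capitals mark matches on either strand to the core of the interferon-stimulated response element (ISRE), spelled TTTC, then any 2 bases, then TTTC, to TTCNNNGAA (the core of a STAT site, which reads alike on both strands) and to CACGTG (the E-box that MYC and MAX bind, alike on both strands). The regions are chr9:32526197-32526446 (minus strand) for RIGI, chr2:162318685-162318934 (minus) for IFIH1, chr4:186068906-186069161 (plus) for TLR3 and chr12:64451870-64452119 (plus) for TBK1.
RIGI: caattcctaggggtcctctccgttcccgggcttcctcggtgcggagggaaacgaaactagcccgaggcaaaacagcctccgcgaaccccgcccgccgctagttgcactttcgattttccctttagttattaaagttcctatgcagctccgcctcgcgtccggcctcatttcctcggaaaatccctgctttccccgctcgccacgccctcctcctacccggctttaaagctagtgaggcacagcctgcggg
IFIH1: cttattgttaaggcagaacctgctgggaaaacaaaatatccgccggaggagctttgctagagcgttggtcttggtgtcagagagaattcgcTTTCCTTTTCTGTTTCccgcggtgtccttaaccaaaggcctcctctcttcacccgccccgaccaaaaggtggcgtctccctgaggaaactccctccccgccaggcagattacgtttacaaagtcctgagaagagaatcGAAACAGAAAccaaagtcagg
TLR3: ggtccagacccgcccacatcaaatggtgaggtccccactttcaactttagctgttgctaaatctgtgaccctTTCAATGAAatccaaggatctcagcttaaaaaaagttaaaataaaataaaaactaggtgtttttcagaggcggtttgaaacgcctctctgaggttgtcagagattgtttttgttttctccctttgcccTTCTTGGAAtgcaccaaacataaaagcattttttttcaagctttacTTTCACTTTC
TBK1: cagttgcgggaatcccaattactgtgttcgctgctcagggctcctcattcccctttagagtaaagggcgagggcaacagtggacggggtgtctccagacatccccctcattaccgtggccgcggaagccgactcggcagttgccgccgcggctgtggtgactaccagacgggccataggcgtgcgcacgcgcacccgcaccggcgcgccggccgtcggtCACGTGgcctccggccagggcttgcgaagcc
IFIH1 held 3 matches to the ISRE core, of which 2 overlap at 159 and 153 bases before the start and the third begins 21 bases before it. TLR3 held 1 such match, which begins 4 bases before the start and runs 6 bases past it. It also held 2 matches to TTCNNNGAA, at 178 and 50 bases before the start. TBK1 held 1 CACGTG, 31 bases before the start, and these letter patterns do not occur in the windows of RIGI, MAVS and IKBKE. In windows of 250 bases before to 50 after the start, the ISRE core was present in 2 of the 6 members, against 3.57% of 35116 windows of all genes. TTCNNNGAA was present in 1 of 6 against 7.66%, and CACGTG in 1 of 6 against 7.26%. A match is a description of the letters and does not show that a factor binds there. Only exact spellings were counted, so a window without a match can still hold a near spelling.

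Doxycycline tumours had higher levels of the RNA sensors RIGI, IFIH1, DHX58 and TLR3 and of the DNA arm's adaptor STING1, and a lower level of the DNA sensor CGAS. Of the 10 genes, 5 rose and 1 fell at a limma adjusted p under 0.05, the threshold used throughout. Of all 17492 genes tested, 4.75% rose and 6.03% fell by the same rule. MAVS, TBK1, IKBKE and ZBP1 were not called. The median log2 fold change of the 10 genes was 0.92, against 0.04 over all genes. In 4 of the 10 genes every doxycycline array lay above every vehicle array, which 8.86% of all genes showed, and in 1 every doxycycline array lay below, which 8.83% showed. The number that rose was 2 when vehicle replicate 1 or 3 or doxycycline replicate 1, 2 or 3 was left out, and the number that fell was 0 when vehicle replicate 1 or doxycycline replicate 1, 2 or 4 was left out. The calls of TLR3 and STING1 held in all 8 fits that left out 1 array. Since tumours were read whole, fewer cells of a type and less RNA per cell cannot be told apart.

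**Figure D1:**
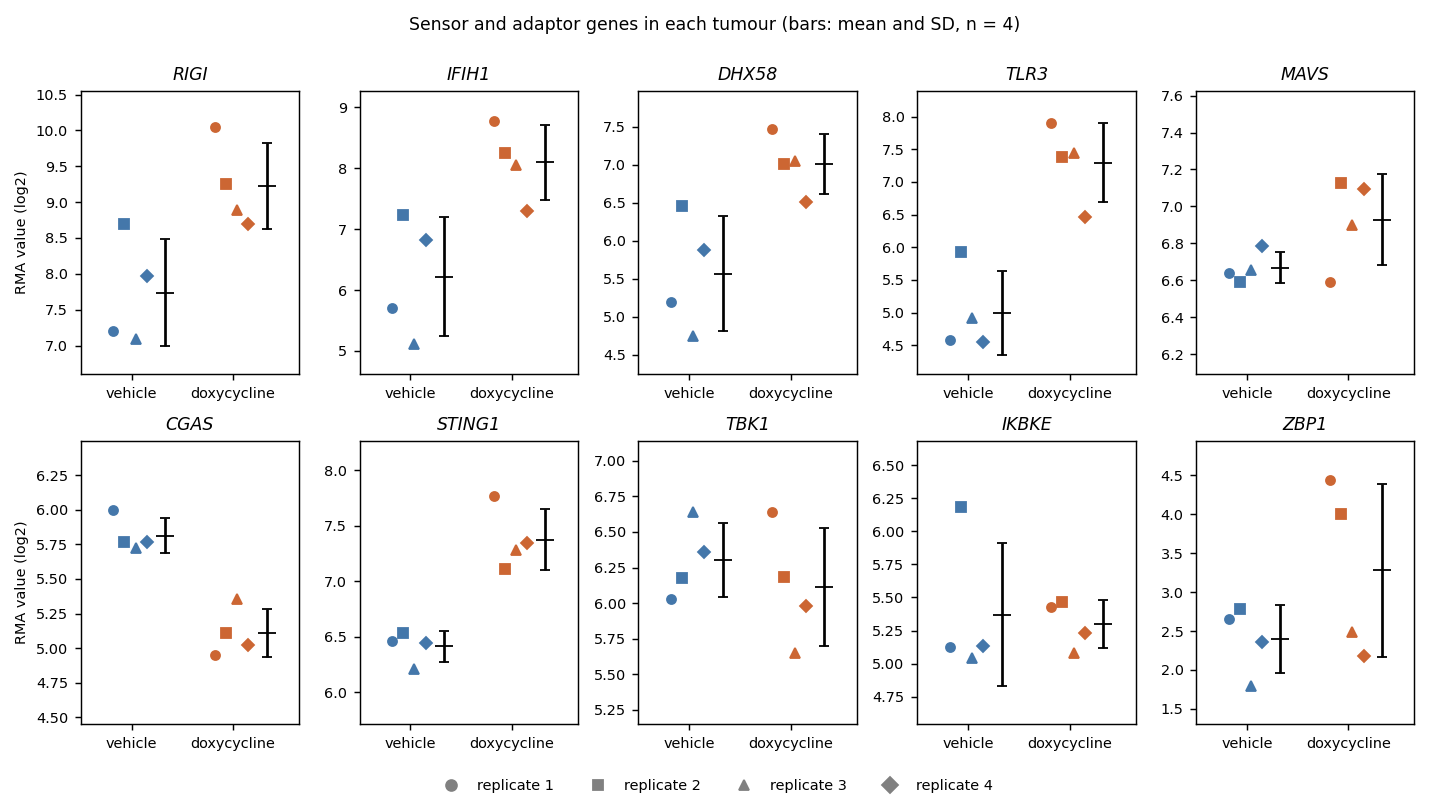
Values of the 10 genes (RMA, log2; each panel has its own axis, which does not start at 0) in the 4 vehicle and 4 doxycycline tumours, with marker shapes for replicate numbers and bars for the mean and SD. The doxycycline points of TLR3, STING1, IFIH1 and DHX58 lie above every vehicle point, those of CGAS lie below, and vehicle replicate 2 is the highest vehicle point for each of the 5 genes that rose.

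The cytosolic helicases are taken first. RIGI stood at 7.20, 8.69, 7.10 and 7.97 in vehicle replicates 1 to 4 and at 10.05, 9.26, 8.90 and 8.69 in doxycycline replicates 1 to 4, in log2 units of the array. Vehicle replicate 2 and doxycycline replicate 4 thus met at the same rounded value, and 3 of 4 doxycycline arrays lay above every vehicle array. The mean went from 7.74 ± 0.74 to 9.22 ± 0.60 (SD, n = 4), a log2 fold change of 1.48 ± 0.39 (SE), or 2.80-fold higher (limma adjusted p = 0.0329). IFIH1, whose product prefers long double-stranded RNA, read 5.71, 7.24, 5.12 and 6.83 in the vehicle tumours and 8.78, 8.25, 8.05 and 7.30 in the doxycycline tumours. Its groups did not overlap, though vehicle replicate 2 and doxycycline replicate 4 were separated by only 0.06. IFIH1 was 3.66-fold higher, with a log2 fold change of 1.87 ± 0.46 (SE; limma adjusted p = 0.0247). DHX58, which modulates the other helicases, read 5.20, 6.46, 4.74 and 5.87 with vehicle and 7.47, 7.01, 7.05 and 6.51 with doxycycline. The same pair of arrays came closest in DHX58, at a distance of 0.05. Its log2 fold change was 1.44 ± 0.35 (SE; 2.72-fold higher, limma adjusted p = 0.0245).

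The calls of the 3 helicases were lost in several fits that left out 1 array. RIGI lost its call without vehicle replicate 1, 3 or 4 (limma adjusted p of 0.0976, 0.0969 and 0.0566) and without doxycycline replicate 1, 2 or 3 (0.0732, 0.0751 and 0.0520). IFIH1 lost it without vehicle replicate 1 or 3 (0.0756 and 0.0621) and without doxycycline replicate 1, 2 or 3 (0.0610, 0.0635 and 0.0558). DHX58 lost it without the same arrays, at 0.0751, 0.0637, 0.0606, 0.0576 and 0.0584. Over all 8 such fits the log2 fold changes stayed between 1.21 and 1.80 for RIGI, between 1.50 and 2.21 for IFIH1 and between 1.17 and 1.74 for DHX58. After each gene was centred on its own mean, RIGI and DHX58 differed by a root mean square of 0.21 log2 units over the 8 arrays, IFIH1 and DHX58 by 0.30 and RIGI and IFIH1 by 0.33.

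TLR3 had the largest difference of the 10 genes. The receptor read 4.58, 5.93, 4.92 and 4.55 in the vehicle tumours and 7.90, 7.39, 7.44 and 6.46 in the doxycycline tumours. The lowest doxycycline array, replicate 4, lay 0.52 above the highest vehicle array, replicate 2. The mean rose from 4.99 ± 0.65 to 7.30 ± 0.60 (SD, n = 4), which is 4.93-fold, with a log2 fold change of 2.30 ± 0.36 (SE; limma adjusted p = 0.00242). Between 2.10 and 2.61 was found with 1 array left out, with a limma adjusted p of at most 0.0111. UNC93B1, the chaperone that carries TLR3 to endosomes, rose by 0.84 ± 0.19 (SE; limma adjusted p = 0.0181), and lost its call without vehicle replicate 1 or 4 or doxycycline replicate 2 or 3 (adjusted p of 0.0596, 0.0509, 0.0510 and 0.0538). TICAM1, the adaptor TRIF through which TLR3 signals, stood at -0.67 ± 0.34 (SE) and was not called (limma adjusted p = 0.271). It is named after its value was seen.

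MAVS, the shared adaptor of RIG-I and MDA5, had vehicle values of 6.64, 6.59, 6.65 and 6.79 and doxycycline values of 6.59, 7.13, 6.90 and 7.09. Doxycycline replicates 2, 3 and 4 lay above every vehicle array and replicate 1 lay level with the lowest. The difference of 0.26 had a 95% interval from -0.13 to 0.65 and did not pass (limma adjusted p = 0.424). The sensors were also set against MAVS within each array, a difference that no scaling of whole arrays can move. RIGI minus MAVS went from 1.07 ± 0.76 in vehicle to 2.30 ± 0.81 in doxycycline tumours (SD, n = 4), a shift of 1.23 with an exact two-sided permutation p of 0.0857 (0.107 adjusted over the 5 such pairs tested). For IFIH1 minus MAVS the shift was 1.61 and for DHX58 minus MAVS 1.18, each with an exact p of 0.0571 (0.0952 adjusted) and with 3 of 4 doxycycline arrays above every vehicle array. None of the 5 pairs passed after adjustment, and the smallest p that 4 against 4 arrays can give is 0.0286.

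In the DNA arm the sensor fell and the adaptor rose. CGAS stood at 6.00, 5.77, 5.72 and 5.76 in the vehicle tumours and at 4.95, 5.11, 5.35 and 5.03 in the doxycycline tumours, with no overlap. It fell by 0.70 ± 0.17 (SE) on the log2 scale, which is 1.63-fold lower (limma adjusted p = 0.0219). STING1 read 6.46, 6.54, 6.21 and 6.45 with vehicle and 7.76, 7.11, 7.28 and 7.34 with doxycycline. The groups of STING1 were 0.58 apart at their closest. The adaptor rose by 0.96 ± 0.19 (SE), or 1.94-fold (limma adjusted p = 0.00838), with at most 0.0314 when 1 array was left out. CGAS minus STING1 within an array was -0.46, -0.77, -0.49 and -0.68 in vehicle and -2.82, -2.00, -1.93 and -2.32 in doxycycline tumours. All 4 doxycycline arrays lay below all 4 vehicle arrays, with a shift of -1.66 and the smallest exact p of the design, 0.0286 (0.0952 adjusted over the 5 pairs).

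**Figure D2:**
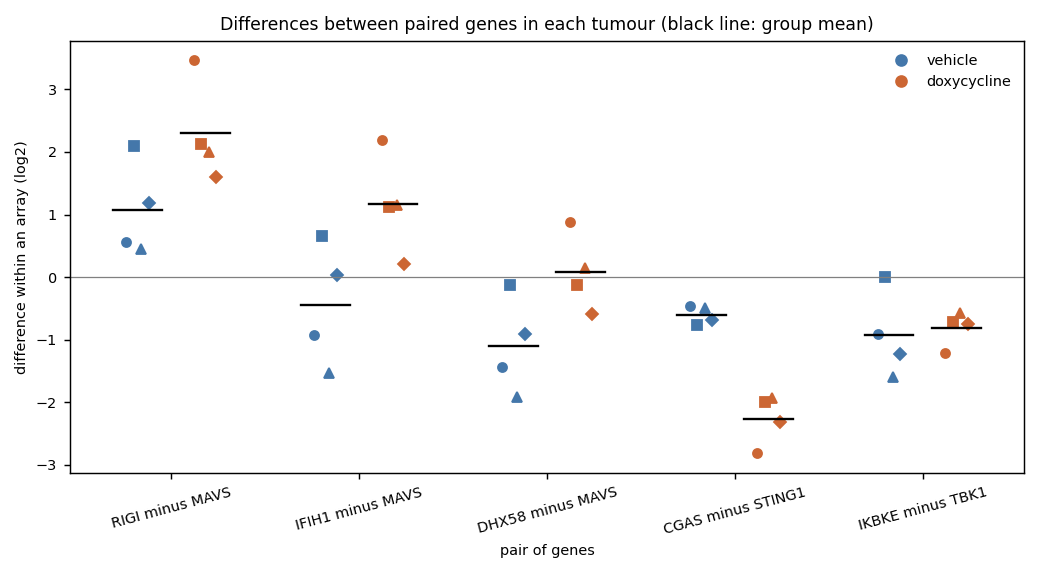
Difference between paired genes within each array (log2), by tumour and group, with black lines at the group means and marker shapes for replicate numbers. CGAS minus STING1 is separated between the groups, with a shift of -1.66, whereas the other 4 pairs overlap.

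The call of CGAS was lost without vehicle replicate 1 or doxycycline replicate 1, 2 or 4 (limma adjusted p of 0.0704, 0.0525, 0.0553 and 0.0536), and STING1 kept its call in all 8 such fits. CGAS also lost its call when arrays were centred on the ribosomal protein genes (log2 fold change -0.48, adjusted p = 0.139), a scaling that moved the median of all genes to 0.26.

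**Figure D3:**
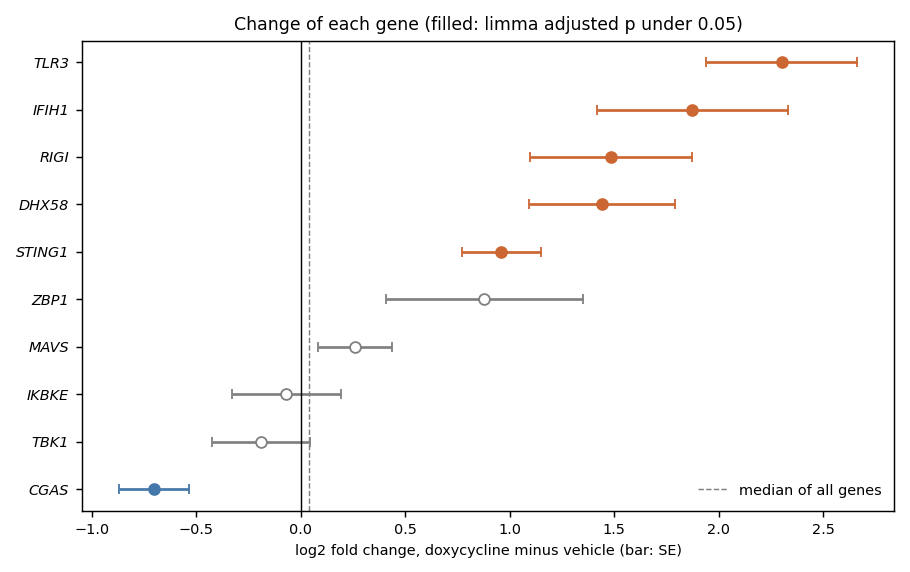
Log2 fold change of each gene, doxycycline minus vehicle, with the SE of the limma fit as the bar. Filled points passed the threshold, open points did not, and the dashed line marks the median of all genes at 0.04. TLR3 lies farthest right at 2.30, CGAS lies farthest left at -0.70, and the bar of ZBP1 is the widest.

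The kinases at the end of both routes were not called. TBK1 had vehicle values of 6.03, 6.18, 6.64 and 6.36 and doxycycline values of 6.64, 6.18, 5.65 and 5.98, which overlap. Its difference was -0.19 with a 95% interval from -0.71 to 0.33 (limma adjusted p = 0.699), and stood at 0.035 with arrays centred on ribosomal protein genes. IKBKE, the relative that interferon and NF-kB signalling can induce, read 5.12, 6.18, 5.04 and 5.14 with vehicle and 5.43, 5.47, 5.08 and 5.23 with doxycycline. Vehicle replicate 2 stood above the other vehicle arrays and above every doxycycline array. The difference of IKBKE was -0.07, with a 95% interval from -0.64 to 0.50 (limma adjusted p = 0.910), and turned to 0.20 without vehicle replicate 2. IKBKE minus TBK1 within an array differed by 0.12 between groups (exact two-sided permutation p = 0.743).

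ZBP1 was read at the dim end of the array, below the array's lower quartile in 6 of 8 tumours, where changes can be understated. Its vehicle values were 2.65, 2.79, 1.80 and 2.36, and its doxycycline values were 4.45, 4.00, 2.49 and 2.18. Doxycycline replicates 1 and 2 lay above every vehicle array and replicates 3 and 4 lay within the vehicle range. The difference of 0.88 ± 0.47 (SE) had a 95% interval from -0.16 to 1.92 and was not called (limma adjusted p = 0.295).

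The arrays kept a similar order across the genes that rose. In the vehicle group, replicate 2 was the highest for 5 of the 5 genes, and replicate 3 was the lowest for 4 of them. In the doxycycline group, replicate 1 was the highest for 5 of 5, and replicate 4 was the lowest for 4 of them. Averaged over the 5 genes, vehicle replicates 1 to 4 stood at 5.83, 6.97, 5.62 and 6.33 and doxycycline replicates 1 to 4 at 8.39, 7.80, 7.74 and 7.26. The vehicle group thus spanned 1.36 log2 units, and the gap between vehicle replicate 2 and doxycycline replicate 4 was 0.29. The 5 genes were picked for having risen, so a higher mean in the doxycycline group follows from that choice. Vehicle replicate 2 and doxycycline replicate 4 had the highest lower quartiles of the 8 arrays, at 3.20 and 3.23 against 3.03 to 3.10. They also had the lowest upper quartiles, at 6.72 and 6.79 against 6.86 to 6.92. Whether these quartiles bear on the members was not tested. Leaving out both arrays, chosen after these values were seen, takes away the highest vehicle array of all 5 genes and the lowest doxycycline array of 4, so it can only widen the differences of those 4. Then 5 members rose and 0 fell.

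**Figure D4:**
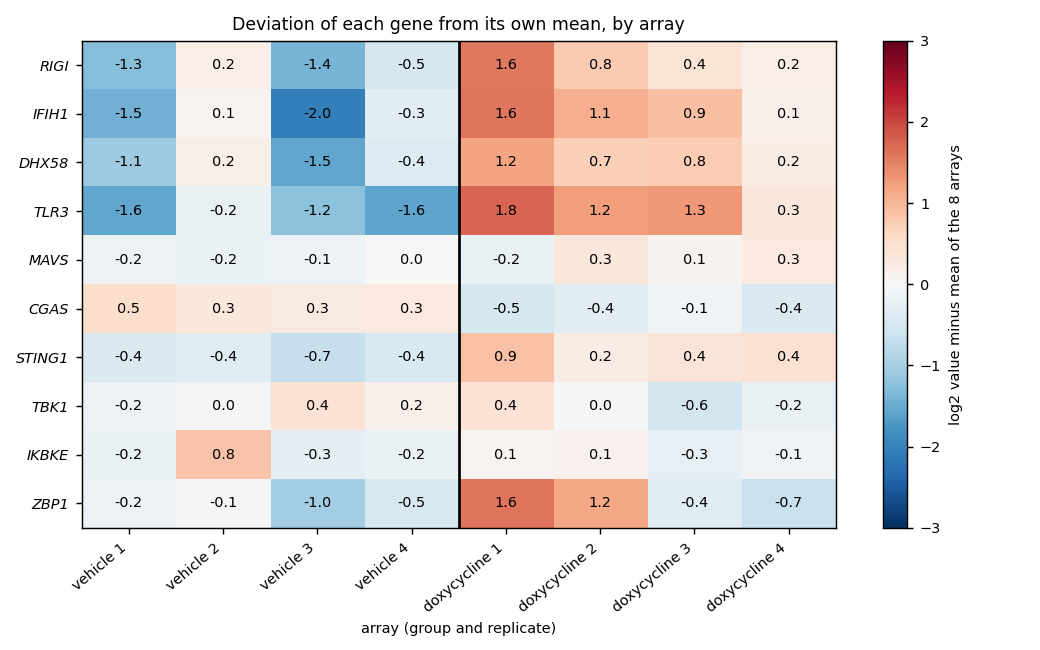
Each gene's log2 value minus its own mean over the 8 arrays, by array (columns) and gene (rows), from blue (below) to red (above). RIGI, IFIH1, DHX58 and TLR3 share a pattern in which doxycycline replicate 1 is the highest. In it, vehicle replicate 2 and doxycycline replicate 4 lie near the middle. CGAS is lower in every doxycycline than in every vehicle array.

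Genes with the most similar profile were found by the root mean square difference from a member over the 8 arrays, each gene centred on its own mean. For RIGI these were SAMD9 (0.14 log2 units), PLSCR1 (0.19) and its fellow member DHX58 (0.21). For IFIH1 they were SAMD9 (0.26), LY6E (0.26) and USP18 (0.29), and for DHX58 they were SHFL (0.17), SAMD9 (0.18) and OAS3 (0.18). SAMD9, PLSCR1, LY6E, USP18 and OAS3 are known as genes that interferon induces. The nearest genes to TLR3 were CFB (0.39), RTP4 (0.39) and IL18BP (0.39). STING1 was nearest to CLDN15 (0.11), CCND3 (0.12) and NOXO1 (0.13), and CGAS to SMC1A (0.05), a cohesin subunit, NOB1 (0.06) and GZF1 (0.07). The distances are in log2 units and grow with a gene's own range, so they are not comparable between members. Only called members were used, and the centred values still hold the difference between groups. Genes of similar fold change thus come out near, and likeness among tumours within a group was not tested.

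The rest of the pathway was read from lists by role, beside which 4.75% of all genes rose and 6.03% fell. Of 18 measured other sensors of nucleic acid, 5 rose and 1 fell, with a median log2 fold change of 0.40. OAS1 and OAS2, which on double-stranded RNA make the 2-5A that activates RNase L, and their relative OASL, which lacks that activity and supports RIG-I, rose by 2.79 ± 0.71, 2.43 ± 0.66 and 1.70 ± 0.35 (SE). The helicase DDX60 rose by 1.53 ± 0.26 (SE). OAS1 lost its call in 5 of 8 fits without 1 array (limma adjusted p up to 0.0876, without vehicle replicate 1) and OAS2 in 6 of 8 (up to 0.109, without vehicle replicate 1), and both lost it with a trended and robust prior (0.0982 and 0.0921). The log2 fold change of OAS1 was 3.45 without vehicle replicate 2 and 2.20 without vehicle replicate 3. HMGB1, a chromatin protein that also binds nucleic acids for other sensors, fell by 1.48 ± 0.20 (SE; limma adjusted p = 0.000892) and was lower in all 4 doxycycline arrays than in any vehicle array.

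Among 26 measured genes of signal relay, the adaptors, ubiquitin ligases, kinases and transcription factors downstream of the sensors, 1 rose and 2 fell, with a median of 0.13. The gene that rose was UNC93B1. TRAF3, the ubiquitin ligase that links MAVS and TRIF to TBK1, read 7.22, 7.68, 7.18 and 7.68 in vehicle and 2.74, 4.45, 4.47 and 4.34 in doxycycline tumours. Every doxycycline value lay far below the vehicle range, and doxycycline replicate 1 lay lowest. That is the array in which RIGI, IFIH1, DHX58, TLR3 and STING1 were highest, but the other doxycycline arrays did not continue this order. Doxycycline replicate 4 had the next lowest TRAF3 and the lowest RIGI, IFIH1, DHX58 and TLR3 of that group. The relation was not tested. The fall of TRAF3 was 3.44 ± 0.36 (SE) on the log2 scale, or 10.9-fold (limma adjusted p = 0.000232). NFKB1, the p105 and p50 subunit of NF-kB, fell by 1.64 ± 0.24 (SE; limma adjusted p = 0.00148). IRF3 and IRF7, the factors that TBK1 activates, stood at -0.17 ± 0.37 and 0.48 ± 0.27 (SE) and were not called (limma adjusted p of 0.837 and 0.316). These 2 genes are named after their values were seen.

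Of 21 measured regulators of the sensors 3 rose and 0 fell, with a median of 0.14 and 7 genes at an unadjusted limma p under 0.05, which 23.9% of all genes reached. USP18, which removes ISG15 from proteins and dampens interferon signalling, rose by 2.15 ± 0.54 (SE). DDX60L, a relative of the helicase DDX60, and TRIM38, a ubiquitin ligase, rose by 2.01 ± 0.31 and 1.10 ± 0.24 (SE). USP18 lost its call in 5 of 8 fits without 1 array (limma adjusted p up to 0.0881, without vehicle replicate 1). Of 21 measured partners of the DNA arm 1 rose and 2 fell, with a median of -0.23. The gene that rose was SLC15A3, a transporter of endolysosomes, by 1.27 ± 0.33 (SE), with its call lost in 5 of 8 fits (up to 0.100, without vehicle replicate 1). SLC19A1, the reduced folate carrier that can import cyclic dinucleotides, fell by 1.97 ± 0.22 (SE) and LRRC8C, a subunit of volume-regulated channels that pass cGAMP, fell by 1.23 ± 0.26 (SE).

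Enzymes that remove or edit nucleic acids moved in both directions. Of 18 measured, 4 rose and 2 fell, with a median of 0.12. SAMHD1, which hydrolyses deoxynucleotides, rose by 1.79 ± 0.32 (SE), and the lysosomal nucleases PLD3, RNASET2 and DNASE2 rose by 1.60 ± 0.22, 1.11 ± 0.30 and 1.06 ± 0.21 (SE). RNASEH2A and RNASEH2B, subunits of the enzyme that removes ribonucleotides from DNA, fell by 1.14 ± 0.25 and by 0.93 ± 0.26 (SE). The call of RNASET2 was lost in 5 of 8 fits without 1 array (limma adjusted p up to 0.0973, without vehicle replicate 4), and that of RNASEH2B in 7 of 8 (up to 0.120, without vehicle replicate 3). RNASEH2B also lost it with arrays centred on their medians (0.0525) or on ribosomal protein genes (0.0939).

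The interferon genes themselves were not called. Of 20 measured genes of type I, II and III interferons, 0 rose and 0 fell by limma, with 1 at an unadjusted p under 0.05 (23.9% over all genes), and their log2 fold changes ran from -0.60 to 0.36. IFNB1, named after its value was seen, stood at 2.08 with vehicle and 2.22 with doxycycline, at the dim end of the array. The IFNA genes are near-identical copies, so their probes may not separate them. In contrast, 27 of 32 measured interferon response genes rose and 0 fell, with a median of 1.75 and 30 genes at an unadjusted limma p under 0.05 (23.9% over all genes). BST2, RSAD2, IFIT2 and IFI44L rose by 3.59 ± 0.85, 3.22 ± 0.66, 3.13 ± 0.50 and 2.98 ± 0.60 (SE). BST2 was at 2.85, 4.24 and 4.20 without vehicle replicate 1, 2 or 4, and lost its call without doxycycline replicate 1 or 2 or vehicle replicate 3 (limma adjusted p of 0.0531, 0.0573 and 0.0685) and with a trended and robust prior (0.0687). RSAD2 was at 3.90 without vehicle replicate 2.

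**Figure D5:**
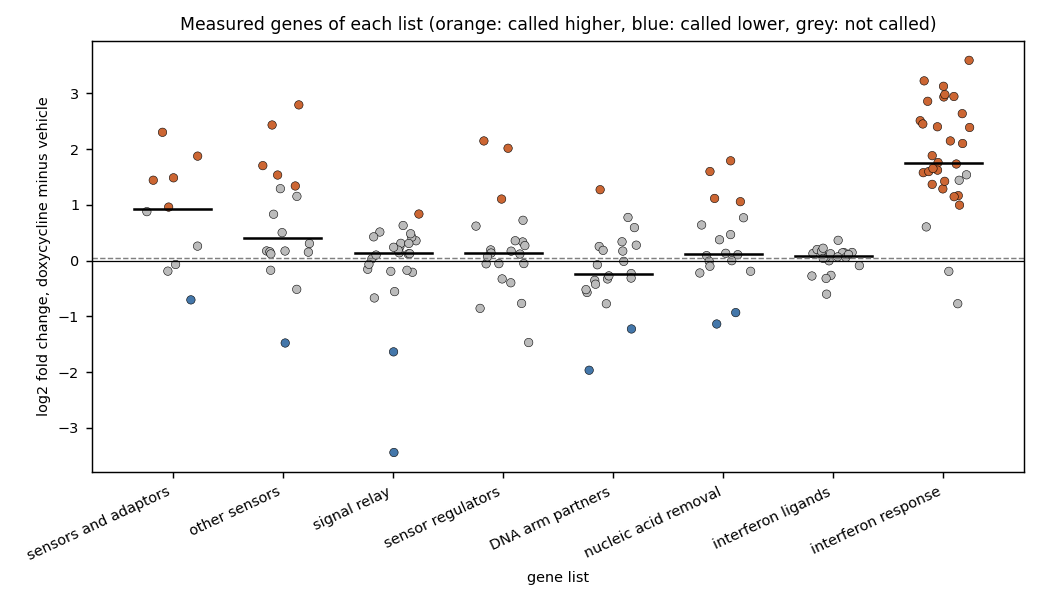
Log2 fold changes (doxycycline minus vehicle) of the measured genes of each list, with called genes in orange (higher) or blue (lower), the rest in grey, a black line at each list's median and a dashed line at the median of all genes. The interferon response genes lie highest, with a median of 1.75, and the interferon ligands stay between -0.60 and 0.36.

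The array is built for human sequence, and RNA of the mouse host can reach it only by cross-hybridisation. Medians of the 8 arrays lay between 5.02 and 5.13, and precision is limited by having 4 arrays a group. The melanoma label was checked against 11 measured markers. SOX10 averaged 6.53 in vehicle and 6.25 in doxycycline tumours, while the pigment genes PMEL, MLANA, TYR and TYRP1 averaged between 2.13 and 3.26, around or below the lower quartile of the arrays. NGFR was the marker that rose, by 2.06 ± 0.53 (SE), and AXL was at 0.63 and not called (limma adjusted p = 0.125). Markers of other cells were summarised as the mean of the list in each array. Such cells would be of the mouse host here. Whether the readings come from them or from the human tumour cells was not tested. Of 13 leukocyte and macrophage markers 1 rose, LYZ, by 1.11 (named after its value was seen), the list running from 3.85 to 4.08 in vehicle and from 4.27 to 4.59 in doxycycline tumours. Of the 13, 5 had an unadjusted limma p under 0.05 (23.9% over all genes). CD14, ITGAM and FCGR3A, also named after their values were seen, stood at 1.82, 0.51 and 0.74 and were not called (limma adjusted p of 0.0507, 0.0824 and 0.0612), with 3, 4 and 4 doxycycline arrays above every vehicle array. PTPRC, the defining leukocyte gene, averaged 2.38 and 1.91, and the 2 brightest markers, CD68 and NCAM1, were not called (limma adjusted p of 0.128 and 0.437). Of 5 plasmacytoid dendritic cell markers 0 rose and 0 fell, with 1 at an unadjusted limma p under 0.05 (23.9% over all genes) and lists from 3.87 to 4.43 and from 4.05 to 4.58. Its brightest genes TCF4 and GZMB were not called (0.116 and 0.864 by limma), and CLEC4C averaged 2.65 and 2.63.

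Of 8 fibroblast markers, 3 rose, PDGFRA, COL1A1 and COL1A2, and the list ran from 5.54 to 6.59 in vehicle and from 6.70 to 7.80 in doxycycline tumours. THY1, named after its value was seen, stood at -1.05 and was not called (limma adjusted p = 0.0844), and 6 of the 8 had an unadjusted limma p under 0.05 (23.9% over all genes). The brightest of them, FAP and LUM, were not called (limma adjusted p of 0.662 and 0.0747). Of 7 endothelial markers 0 rose and 0 fell, with 2 at an unadjusted limma p under 0.05 (23.9% over all genes), and lists from 3.27 to 3.41 and from 3.22 to 3.87. PECAM1 and VWF, the brightest, were not called (0.400 and 0.812 by limma). The means of the fibroblast list and of the leukocyte and macrophage list were higher in every doxycycline than in every vehicle array. So was the mean of the 11 melanoma markers, from 4.30 to 4.57 in vehicle and from 4.64 to 4.93 in doxycycline tumours. The median log2 fold change of these 11 was 0.17, and NGFR alone was called, at 2.06. MITF, SOX10, PMEL, MLANA and TYR stood at -0.15, -0.27, -0.07, -0.22 and -0.08, and the other melanoma markers lay above 0. MITF is named after its value was seen. IFIH1, DHX58, TLR3 and STING1, like the means of these lists, were higher in every doxycycline than in every vehicle array. The part of these lists in the results of the members was not tested.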

How the data were processed

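RNA of 8 tumours was hybridised to 1 Affymetrix array each. Per the submitters' processing notes, the authors ran RMA, and the deposited values are on its log2 scale. RMA subtracts background, quantile-normalises and summarises probes. The sources used here name no software, version or filter. The table has 18569 rows, of which 17511 pair with 1 gene symbol, 0 with several and 1058 with none, and the brightest row was kept for 17 genes with several. All 17511 were found by gene ID in the RefSeq table. Of 306 list genes, 52 were not analysed here. Groups and replicate numbers come from the titles, and p-values measure the spread between these tumours.

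Doxycycline was compared with vehicle by limma 3.58.1 (lmFit and eBayes, R 4.3.3), with two-sided p-values adjusted over 17492 genes by Benjamini-Hochberg. Within-array differences used exact permutation tests. Named are the members, per pathway list the 4 largest called changes in each direction, the 3 nearest genes of each called member and the 2 brightest markers of each list. The members and lists were chosen with earlier results of these data known. Replicate numbers were not used as pairs. The fit was tested on simulated data in which 200 of 17492 genes changed. There 43.8% of true log2 changes of 1 and 98.2% of changes of 2 were called, so smaller changes can be missed. Figures were drawn in Python 3.11.15.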

Additional observations from a re-analysis of the deposited data

Results flagged for a closer look

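Among 96 sets of 4 arrays examined for 48 named genes, 5 had 1 array far from the other 3 by Dixon's criterion, and chance alone gives about 1 in 20. IKBKE, the single member among them, was at 6.18 in vehicle replicate 2 and between 5.04 and 5.14 in the other vehicle tumours. TRAF3 was at 2.74 in doxycycline replicate 1, against 4.34 to 4.47 in the other doxycycline tumours. DNASE2 was at 6.80 in doxycycline replicate 3, against 6.34 to 6.41. CFB, a near neighbour of TLR3, was at 5.36 in doxycycline replicate 4, against 6.00 to 6.08. NOB1, a near neighbour of CGAS, was at 8.19 in doxycycline replicate 3, against 7.77 to 7.84.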

How the results depend on the processing

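Each choice was varied alone: normalization (quantile on top), centring, a filter on the dimmest 40% of genes, the variance prior (trended and robust), array weights, the replicate block, averaging a gene's rows, and leaving out arrays. With arrays centred on ribosomal protein genes, 0 members fell, 23 pathway genes rose, and over all genes 1618 rose and 683 fell, with TBK1 at 0.035 and IKBKE at 0.15. Without the dimmest genes 22 pathway genes rose and 11 fell, against 14 and 7. Same-numbered tumours did not deviate together (correlations of -0.16 to 0.03, against 0.23 for vehicle replicate 2 with doxycycline replicate 4). Under the replicate block 0 members fell, 502 genes rose over all, and RIGI and CGAS lost their calls (limma adjusted p of 0.0532 and 0.0837), as did the pathway genes OAS2, USP18, SLC15A3, RNASET2 and RNASEH2B (0.0572, 0.0587, 0.0735, 0.0503 and 0.0686). With array weights IKBKE was at 0.090. With 1 array left out, 2 to 5 members rose and 0 to 1 fell, 9 to 18 pathway genes rose, 503 to 727 of all genes rose, and IKBKE ran from -0.18 to 0.20, being positive without vehicle replicate 2 (0.20) or doxycycline replicate 3 (0.0047). IKBKE minus TBK1 ran from -0.10 (without vehicle replicate 3) to 0.43. Chosen after seeing the data, leaving out vehicle replicate 2 with doxycycline replicate 4 or with doxycycline replicate 1 gave 5 risen and 0 fallen members in both, with IKBKE at 0.23 and 0.16. In the 250 bases before the start alone, 1 member held the ISRE core (TTTC, any 2 bases, TTTC). For the 38 other named genes, 571 of 684 values kept their side of the threshold, 106 lost and 7 gained a call, and 0 changed direction. The causes were not tested. Signal over background is unknown, which limits ZBP1 and the interferon genes.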

Other observations

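The mean of 32 interferon response genes ordered the arrays much as the 5 sensor and adaptor genes that rose, with vehicle replicates 1 to 4 at 5.87, 7.68, 5.97 and 7.12 and doxycycline replicates 1 to 4 at 9.00, 8.48, 8.64 and 8.03. In both sets vehicle replicates 2 and 4 were the higher vehicle tumours and doxycycline replicate 1 the highest of all 8. The 5 genes were picked for being higher with doxycycline, so their separation of the groups follows from that choice. MYC, of which Omomyc is a fragment, read 5.92, 5.42, 5.92 and 5.26 in the vehicle and 5.49, 7.22, 7.74 and 6.78 in the doxycycline tumours. Doxycycline replicate 1 was thus the doxycycline tumour whose MYC value lay within the vehicle range. It also had the highest RIGI, IFIH1, DHX58, TLR3 and STING1 and the lowest CGAS and TRAF3. The other doxycycline tumours did not continue this order. Doxycycline replicate 4 had the next lowest MYC of that group and its lowest mean of the 5 genes, 7.26. MYC is outside the naming rule, and its relation to these genes was not tested. Whether its row also reads Omomyc was not tested.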
